A study of Homo sapiens with 6 samples.

Results

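The culture of HEK293T cells given the N267star allele of ATF6 was compared, gene by gene, with the culture labelled non-transfected. These are 2 of the 6 RNA sequencing libraries of a study of ATF6 alleles found in achromatopsia, in which cone vision is lost from birth, and they were chosen by the genotype in the sample labels. The other 4 libraries came from cells given ATF6 labelled WT, the missense allele M67V, or an allele that lacks several exons (ex2-3del or ex8-14del), and they are used here only beside the N267star values. HEK293T is a line derived from human embryonic kidney that takes up plasmids readily and has ATF6 genes of its own, so endogenous and introduced ATF6 were counted together. Each group had 1 library, which allows no test between conditions, so every value below compares 2 libraries. The sample labels give the control as non-transfected, but the growth protocol mentions an empty vector. If the control received no plasmid, the transfection itself and the allele cannot be told apart in this comparison. The promoter that drives the introduced ATF6 is not given in the sources used here.

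ATF6 is made as a membrane protein of the endoplasmic reticulum (ER), the compartment in which secreted and membrane proteins are folded. When misfolded proteins build up, it moves to the Golgi apparatus, where proteases release its cytosolic part, and this part enters the nucleus and switches on genes for ER chaperones and for the removal of misfolded proteins. N267star names a stop in place of an asparagine codon. The basic leucine zipper that binds DNA and the membrane segment both lie beyond that position. In the longest coding transcript of GENCODE v29 the codon of that number, of 670 in all, lies in exon 7, so 266 codons, or 39.7% of them, precede it. The reference coding sequence around it is shown because it places the stop, at GRCh38 chr1:161802132-161802194 on the plus strand, with the codon in capitals:
ATF6: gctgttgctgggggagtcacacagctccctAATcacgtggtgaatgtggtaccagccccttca

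The best known binding sequence of ATF6 is the ER stress response element (ERSE), which is CCAAT and then CCACG with 9 unspecified bases between them, bound together with NF-Y. A shorter form, ERSE-II, is ATTGG and then CCACG with 1 unspecified base between them. Both were searched on both strands in RefSeq promoters of GRCh38.p14 (250 bases before to 50 after the gene start). ERSE was found in 27 of 35116 promoters (0.0769%) and ERSE-II in 19 (0.0541%). The element with its flanks is shown for 8 genes whose levels are described below, in the order of 5′ to 3′ on the gene's strand, with the matched letters in capitals. In CALR and HYOU1 the match is to the opposite strand.
HSPA5, ERSE, chr9:125241371-125241429, minus strand: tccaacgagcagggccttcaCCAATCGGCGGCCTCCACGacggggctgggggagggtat
HSP90B1, ERSE, chr12:103930196-103930254, plus strand: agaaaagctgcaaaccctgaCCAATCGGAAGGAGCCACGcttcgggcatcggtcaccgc
CANX, ERSE, chr5:179698758-179698816, plus strand: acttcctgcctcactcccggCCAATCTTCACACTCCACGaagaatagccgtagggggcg
CALR, ERSE, chr19:12938364-12938422, plus strand: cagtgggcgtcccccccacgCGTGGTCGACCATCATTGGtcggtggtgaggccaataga
XBP1, ERSE, chr22:28800583-28800641, minus strand: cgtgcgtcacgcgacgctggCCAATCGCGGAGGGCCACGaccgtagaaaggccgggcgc
PDIA6, ERSE, chr2:10812833-10812891, minus strand: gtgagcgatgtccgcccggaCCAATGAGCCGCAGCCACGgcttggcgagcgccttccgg
HERPUD1, ERSE-II, chr16:56932001-56932059, plus strand: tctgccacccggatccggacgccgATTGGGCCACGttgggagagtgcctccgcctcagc
HYOU1, ERSE-II, chr11:119057356-119057414, minus strand: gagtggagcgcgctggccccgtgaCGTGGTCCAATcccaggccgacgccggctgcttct

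The N267star library held 16813355 counts and the non-transfected library 16257520. Levels are in CPM, the count of a gene relative to its scaled library, and ratios are log2 of N267star over non-transfected with a prior count of 2. The bracketed ranges are 95% intervals from the 2 counts alone and cover counting error only. A log2 ratio of 0.26 corresponds to 1.2-fold.

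The log2 ratio followed the GC content of the transcript, and this bears on every small difference below. Over 5355 genes with a mean of at least 50 CPM in the 2 libraries, called well-counted, Spearman's rho between the log2 ratio and GC content was -0.72; this is a relation across genes, and genes are no replicates. With the genes cut into 10 equal groups by GC content, the median log2 ratio was 0.13 in the lowest group and -0.12 in the highest. The same measure was -0.64 for WT against non-transfected, -0.39 for ex2-3del, -0.11 for ex8-14del and -0.13 for M67V, and these comparisons share the non-transfected library. It was -0.57 for N267star against ex2-3del, which does not use that library. Many small shifts are therefore also given with the median of the gene's GC bin subtracted, a step chosen after the trend was seen. A ratio or median printed alone has not had the trend subtracted. What the trend comes from was not tested.

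**Figure D1:**
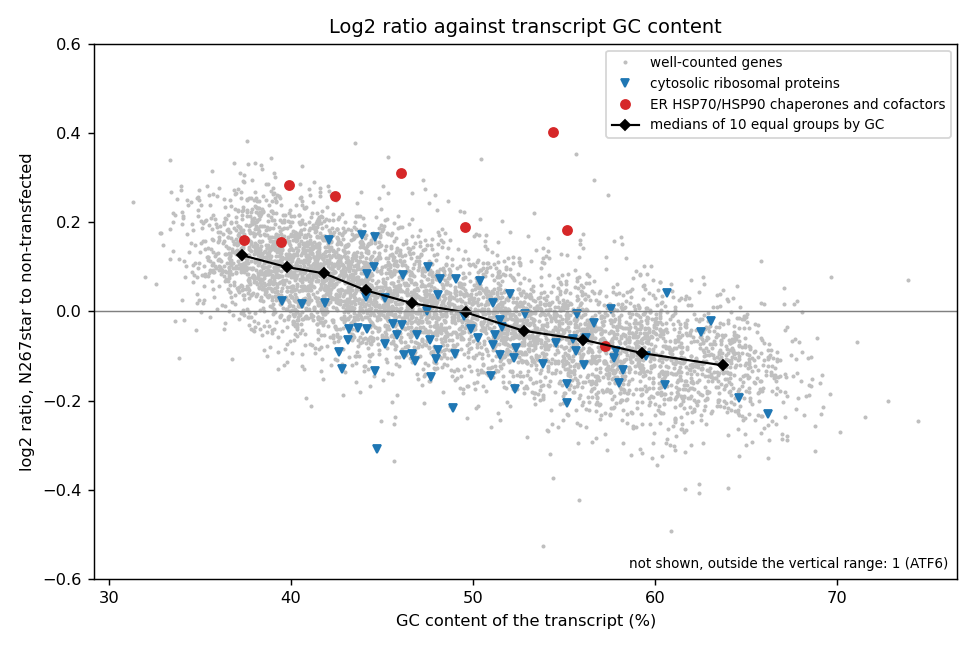
Each grey point is 1 of 5355 well-counted genes, with the GC content of its transcript (%) on the horizontal axis and its log2 ratio of N267star to non-transfected on the vertical axis; diamonds are medians of 10 equal groups by GC content, red points ER chaperones and blue triangles ribosomal protein genes. The medians run from 0.13 to -0.12, MANF at 0.40 and HSPA5 at 0.31 lie above the trend, and ATF6 lies outside the plotted range.

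ATF6 itself, the check of the labels, had a level of 85.1 CPM in non-transfected cells and of 713 CPM in N267star. Its log2 ratio of 3.06 (2.99 to 3.15) was the largest among well-counted genes that overlap no other expressed gene. The deletion alleles had ATF6 levels of 1349 CPM (ex2-3del) and 2410 CPM (ex8-14del), so N267star carried the least ATF6 RNA of the 5 libraries with introduced ATF6, with log2 ratios of -0.92 to ex2-3del and -1.76 to ex8-14del. Fewer transfected cells and less ATF6 RNA per cell cannot be told apart in a bulk library. Reads of the endogenous gene are part of each level.

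Of 11263 genes with at least 5 CPM in either library, 6 were at least 2-fold higher in N267star (0.0533%) and 5 at least 2-fold lower (0.0444%), with an interval that excludes equality. ATF6 and FAXDC2 were the members of this set that overlap no other expressed gene. FAXDC2, a gene of the fatty acid hydroxylase domain family, was at 19.4 CPM in non-transfected and 2.25 CPM in N267star, a log2 ratio of -3.04 (-3.63 to -2.62). It was also low in WT, at 1.76 CPM, and stood at 11.9 CPM in M67V, 30.4 CPM in ex2-3del and, in the ex8-14del library, 28.3 CPM. FAXDC2 was thus low in the N267star and WT libraries and high in both deletion alleles.

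The other 9 genes of the set overlap an expressed gene, and the strand setting of the counting is not stated, so their reads and those of the partner cannot be told apart. SYNC, a gene for an intermediate filament protein of muscle, was at 0.73 CPM in non-transfected and 46.0 CPM in N267star. It was between 46.0 and 49.9 CPM in the other 4 libraries, so the non-transfected library stood alone. SYNC summed with its partner RBBP4 had a log2 ratio of 0.03 (-0.02 to 0.08). PHKG1, a phosphorylase kinase subunit, was at 0.98 and 26.5 CPM, and its sum with SUMF2 gave -0.04 (-0.14 to 0.06). ZSCAN30, a zinc finger gene, was at 15.6 and 2.96 CPM, and its sum with ZNF397 gave -0.01 (-0.10 to 0.09). In these 3 pairs the interval of the summed level included equality.

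ATP6V1C2, a subunit of the proton pump of acidic organelles, gave a higher sum. It was at 8.30 CPM in non-transfected and 70.2 CPM in N267star, and between 9.93 and 16.02 CPM in the other 4 libraries. Its partner PDIA6, a protein disulfide isomerase, was at 402 and 414 CPM, so the pair was at 410 CPM in non-transfected and 485 CPM in N267star, a log2 ratio of 0.24 (0.19 to 0.29). The readthrough symbols JMJD7-PLA2G4B and MINOS1-NBL1 had 154 and 148 counts in non-transfected and none in N267star, so they were at least 52.97-fold and 50.9-fold lower against a floor of 3 counts. JMJD7-PLA2G4B had no count in any of the 5 libraries with introduced ATF6. ZACN had 88 counts in N267star and none in non-transfected, at least 28.4-fold higher against the same floor. The sum of ZACN and its partner EXOC7 gave -0.08 (-0.15 to -0.01). JMJD7-PLA2G4B gave lower sums with both partners, -1.66 (-2.10 to -1.30) with JMJD7 and -0.47 (-0.76 to -0.19) with PLA2G4B. MINOS1-NBL1 gave -0.22 (-0.38 to -0.06) with MINOS1 and -0.13 (-0.35 to 0.09) with NBL1, where the interval included equality. Alone, NBL1 had a log2 ratio of 0.64 (0.39 to 0.90) and PLA2G4B 0.96 (0.60 to 1.35), and the intervals of MINOS1 and JMJD7 included equality. PRR5-ARHGAP8 (1.04 and 5.74 CPM) and TBC1D7-LOC100130357 (6.35 and 1.36 CPM) complete the set. For the former the sum gave 0.25 (0.04 to 0.47) with PRR5 and -0.19 (-0.41 to 0.02) with ARHGAP8. For the latter it gave 0.03 (-0.16 to 0.23) with TBC1D7 and -0.94 (-1.32 to -0.59) with PHACTR1. The sums therefore differed among the pairs, and with the partner used. With more than 1 partner, a sum with either leaves the other out, so it cannot show whether reads moved between symbols. Scaled N267star counts minus non-transfected counts were -148 for MINOS1-NBL1, 47.9 for MINOS1 and 116.7 for NBL1. They were -81.7 for TBC1D7-LOC100130357, 92.3 for TBC1D7 and -6.3 for PHACTR1. For JMJD7-PLA2G4B, JMJD7 and PLA2G4B they were -154, 0.8 and 85.4, and for PRR5-ARHGAP8, PRR5 and ARHGAP8 77.0, -14.3 and -123.5.

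The authors' deposited table for this allele gives an adjusted p below 0.05 for 17 of 16765 genes, 8 higher and 9 lower, from 1 library a side. In the authors' deposited table HSPA5 has a fold of 1.242 and an adjusted p of 0.5469, and HSP90B1, HERPUD1, SEL1L, XBP1, HMGCS1 and DDIT3 have adjusted p-values of 1.

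Small differences of well-counted genes were then counted. Of 5373 such genes, 59 were higher in N267star by 1.2-fold or more, with the interval on the same side (1.1%), and 58 were lower by as much (1.08%). Their transcripts differed in composition: the median GC content was 38.9% in the 59 higher genes, 61.0% in the 58 lower ones and 48.0% over all of them. With the GC trend subtracted, 11 genes lay past 1.2-fold on the higher side (0.205%) and 16 on the lower (0.299%). Beside ATF6, those on the higher side included MANF, NEU1, JUN, SLC3A2, PANK2, OMA1, TUBGCP4, HSPA5 and CLIC1, named here after their values were seen.

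Most ER chaperones had a slightly higher level in N267star than in non-transfected cells. Among the 17 HSP70 and HSP90 type chaperones and cofactors of the ER the median log2 ratio was 0.16, against 0.00 over 10131 genes with a mean of at least 10 CPM. The ratio was above 0 in 15 of the 17, and in 8 the interval lay above equality, against 16.9% of all genes; none had an interval below equality, against 16.1%. With the GC trend subtracted the median was 0.18 and the ratio was above 0 in all 17. Summed over the list, the level was 2553 CPM in non-transfected and 2991 CPM in N267star, a log2 ratio of 0.23 (0.21 to 0.25).

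HSPA5 (BiP), the abundant HSP70 of the ER and the classic ATF6 target, was at 559 CPM in non-transfected, 693 CPM in N267star, 599.7 CPM in ex2-3del, 741 CPM in ex8-14del, 3634 CPM in WT and 3375 CPM in M67V. N267star lay above non-transfected and ex2-3del, below ex8-14del and far below WT and M67V. Its log2 ratio to non-transfected was 0.31 (0.27 to 0.35), and 0.28 with the GC trend subtracted. MANF, a secreted cofactor of HSPA5, was at 122 CPM in non-transfected, 161 CPM in N267star, and 139 and 154 CPM in the ex2-3del and ex8-14del libraries. Its log2 ratio of 0.40 (0.32 to 0.49) was next to that of ATF6 among well-counted genes without an overlap. MANF is GC-rich, at 54.4%, and its ratio was 0.45 with the GC trend subtracted.

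HSP90B1 (GRP94), the HSP90 of the ER, was at 733 CPM in non-transfected and 876 CPM in N267star, with a log2 ratio of 0.26 (0.22 to 0.29). DNAJC3, an HSPA5 cofactor and inhibitor of the kinase PERK, had 0.28 (0.17 to 0.40). With the GC trend subtracted HSP90B1 had 0.18 and DNAJC3 0.20. HYOU1, the nucleotide exchange factor whose ERSE-II is shown above, had 0.18 (0.13 to 0.23). At the low end CNPY2 and CNPY3, of the canopy family, had -0.08 (-0.19 to 0.03) and -0.02 (-0.16 to 0.13), within counting error of equality. DNAJB9, at 10.99 and 13.3 CPM, had 0.27 with an interval of -0.02 to 0.56, so its shift was not detectable at this depth.

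The non-transfected library enters every ratio above. Against ex2-3del in its place, the median of the 17 genes was 0.05, and in 6 of them the interval lay above equality, against 11.3% of genes in that comparison, with 1 below. HSPA5 had a log2 ratio of 0.21 there, MANF 0.22 and HSP90B1 0.17. Against ex8-14del the median was -0.029, with 3 intervals above equality and 3 below, where 1622 (16%) and 1561 (15.4%) of 10115 genes had such intervals, so the list as a whole was not above its level in ex8-14del. Against non-transfected cells, the list's median was 0.12 for ex2-3del, 0.15 for ex8-14del, 1.31 for WT and 1.23 for M67V, comparisons that share that library with N267star.

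**Figure D2:**
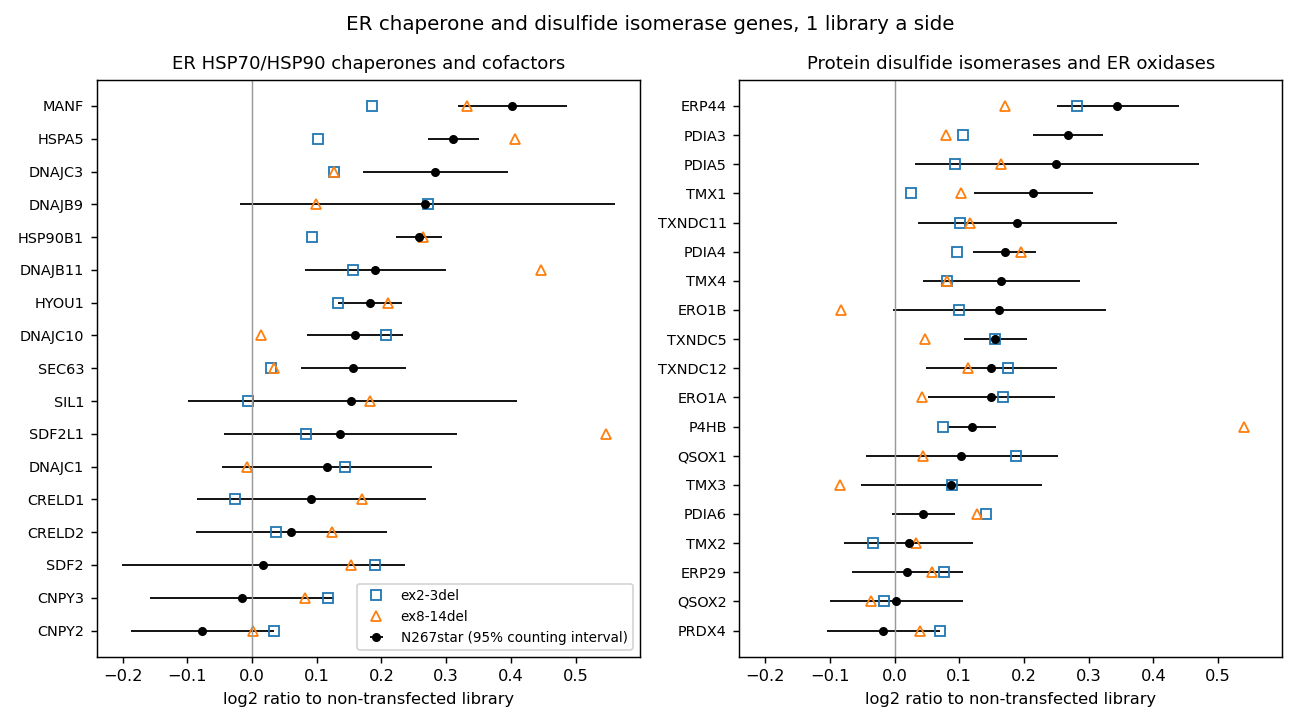
Log2 ratios to the non-transfected library (horizontal axis) of 17 ER chaperones and cofactors (left) and 19 disulfide isomerases and oxidases (right); black points are N267star with 95% counting intervals, squares ex2-3del and triangles ex8-14del, 1 library each. MANF at 0.40, ERP44 at 0.34 and HSPA5 at 0.31 lead, and most N267star points lie to the right of 0.

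Enzymes that form and rearrange disulfide bonds were shifted in the same direction. The 19 protein disulfide isomerases and ER oxidases had a median log2 ratio of 0.15, with 18 above 0. In 11 the interval lay above equality and in none below, against 16.9% and 16.1% of all genes. The median was 0.08 with the GC trend subtracted. ERP44, which returns unassembled proteins from the Golgi apparatus to the ER, was at 98.1 CPM in non-transfected and 124.6 CPM in N267star, with a log2 ratio of 0.34 (0.25 to 0.44). With the trend subtracted its ratio was 0.25. PDIA3, which acts on glycoproteins, had 0.27 (0.21 to 0.32) but overlaps ELL3. P4HB, the prototype isomerase, was at 666 and 723 CPM, a ratio of 0.12 (0.08 to 0.16), while ex8-14del had 967 CPM.

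In the calnexin cycle, which folds glycoproteins, and among ER prolyl isomerases, 19 genes had a median of 0.07. In 6 the interval lay above equality and in 1 below, against 16.9% and 16.1% of all genes. CANX, the membrane lectin calnexin, was at 1202 CPM in non-transfected, 1456 CPM in N267star, and 1332 and 1348.5 CPM in the ex2-3del and ex8-14del libraries. Its log2 ratio of 0.28 (0.25 to 0.30) was 0.19 with the GC trend subtracted. CALR, the soluble lectin calreticulin, was at 921 and 1016 CPM, with a ratio of 0.14 (0.11 to 0.17). FKBP2, a GC-rich prolyl isomerase, had 0.28 (0.11 to 0.44), and 0.40 with the trend subtracted.

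Part of the machinery that brings new proteins into the ER was also on the higher side. The 27 genes of signal recognition, the translocon and the signal peptidase had a median of 0.12. In 17 the interval lay above equality and in 1 below, against 16.9% and 16.1% of all genes. TRAM1, a translocon-associated protein, was at 253 and 319 CPM, with a log2 ratio of 0.33 (0.27 to 0.39). SSR1 had 0.24 (0.18 to 0.30) and SSR3 0.21 (0.14 to 0.28), both subunits of the translocon-associated protein complex. These transcripts are AT-rich, and with the GC trend subtracted the list's median was 0.07 and TRAM1's ratio 0.21. By contrast, the 17 genes of tail-anchor insertion and the ER membrane protein complex had a median of 0.02, and 0.03 with the trend subtracted. They had 2 intervals above equality and 2 below. With the GC trend subtracted these were 4 and 0, where 948 and 961 of 10082 genes had such intervals.

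The 11 subunits of the oligosaccharyltransferase, which attaches N-glycans, had a median of 0.10. In 7 the interval lay above equality and in 1 below, against 16.9% and 16.1% of all genes. The catalytic subunits STT3A and STT3B had 0.21 (0.16 to 0.27) and 0.20 (0.14 to 0.26), or 0.16 and 0.11 with the GC trend subtracted. The 31 genes of COPII vesicles and ER export receptors had a median of 0.07, with 12 intervals above equality and 1 below. Cargo receptor TMED5 was at 209 and 255 CPM, a ratio of 0.29 (0.23 to 0.36), though it overlaps CCDC18. With the GC trend subtracted its ratio was 0.17. Against ex2-3del the medians were 0.03 for the translocon list, -0.013 for the oligosaccharyltransferase and 0.05 for COPII.

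Genes for the removal of misfolded proteins had a smaller median than the chaperones. The 33 genes of ER-associated degradation had a median of 0.03, with 10 intervals above equality and 1 below, against 16.9% and 16.1% of all genes. HERPUD1, which organises the degradation complex and carries an ERSE-II, was at 48.5 CPM in non-transfected, 58.2 CPM in N267star, 54.4 CPM in ex2-3del, 58.1 CPM in ex8-14del, 343 CPM in WT and 310 CPM in M67V. Its ratio to non-transfected was 0.26 (0.13 to 0.40). N267star and both deletion alleles lay between 54.4 and 58.2 CPM, far under WT and M67V. SEL1L, its scaffold partner, was at 70.6 and 77.3 CPM, with a ratio of 0.13 (0.02 to 0.25) and 0.03 with the GC trend subtracted.

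The 17 genes of UPR sensors, proteases and ER stress factors had a median of 0.03. In 5 the interval lay above equality and in 1 below, against 16.9% and 16.1% of all genes. XBP1, the transcription factor of the IRE1 branch, was at 142 CPM in non-transfected, 159 CPM in N267star and 134 CPM in ex2-3del, and its ratio to non-transfected was 0.17 (0.09 to 0.25). The count includes spliced and unspliced XBP1. EIF2AK3, which encodes PERK, had 0.30 (0.11 to 0.50). DDIT3 (CHOP), a pro-apoptotic factor of prolonged ER stress, was at 6.47 and 6.09 CPM, with a ratio of -0.09 (-0.49 to 0.32), a difference within counting error.

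The 24 genes with a mean of at least 10 CPM and an ERSE or ERSE-II in the promoter window had a median log2 ratio of 0.14. The ratio was above 0 in 17. The interval lay above equality in 9 and below in 1, GYS1, against 16.9% and 16.1% of all genes. With the GC trend subtracted the median was 0.08. The 12 genes with ERSE had a median of 0.15 and the 12 with ERSE-II 0.10, and PDIA6, with an ERSE, had 0.04 (-0.0046 to 0.093). A match in the window is a description of the sequence and not of binding.

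**Figure D3:**
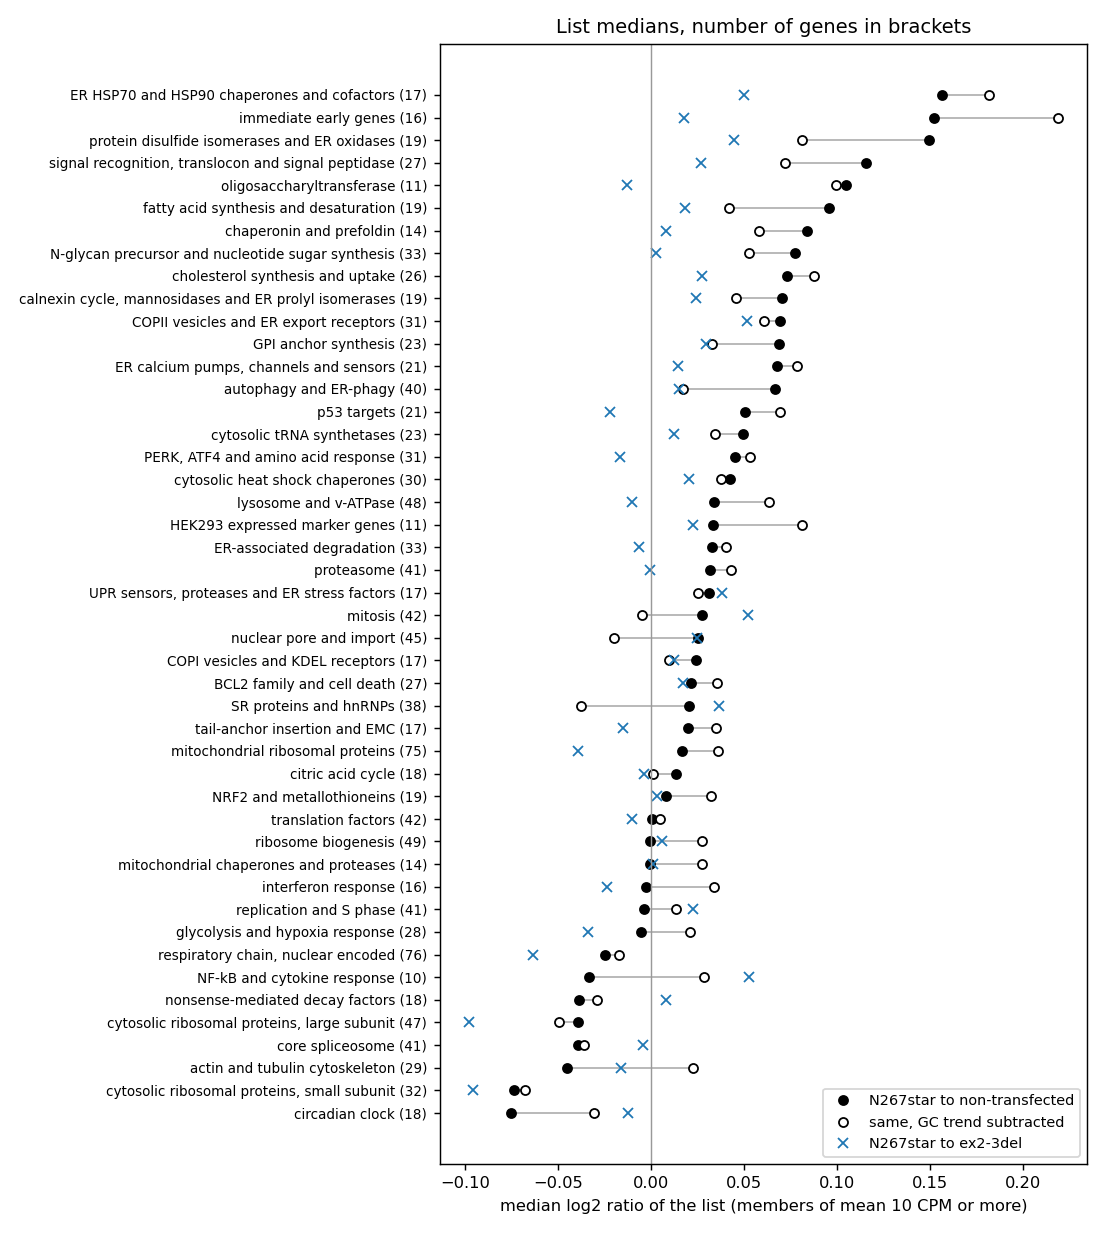
Median log2 ratio (horizontal axis) of 46 gene lists with at least 10 genes at a mean of 10 CPM; filled circles are N267star to non-transfected, open circles the same with the GC trend subtracted, and crosses N267star to ex2-3del. ER chaperones and immediate early genes are at the top, at 0.16 and 0.15, and ribosomal proteins of the small subunit near the bottom, at -0.07.

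Some stress-responsive genes had a higher level in N267star than in non-transfected cells. The 16 immediate early genes, which answer growth factors and stress within minutes, had a median of 0.15, with 4 intervals above equality and none below, against 16.9% and 16.1% of all genes. The median was 0.22 with the GC trend subtracted. ATF3, a stress-induced transcription factor, was at 20.6 CPM in non-transfected, 29.1 CPM in N267star, 32.1 CPM in ex2-3del, 32.2 CPM in ex8-14del, 30.9 CPM in WT and 34.0 CPM in M67V. Its ratio in N267star was 0.49 (0.29 to 0.70), and the non-transfected library stood apart from the 5 others. GADD45A, a stress and DNA damage gene, was at 17.1 CPM in non-transfected and 24.1 CPM in N267star, a ratio of 0.49 (0.27 to 0.72). In the other 4 libraries GADD45A lay between 24.4 and 25.8 CPM.

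JUN, a subunit of the AP-1 factor, was at 243 CPM in non-transfected and 298 CPM in N267star, with a log2 ratio of 0.30 (0.24 to 0.36). SLC3A2, the heavy chain of several amino acid transporters, was at 138 and 166 CPM, a ratio of 0.26 (0.18 to 0.34). Both are GC-rich, and their ratios with the GC trend subtracted were 0.39 and 0.35. PPP1R15A, which reverses the translational block of the stress response, had 0.30 (0.11 to 0.48). KLF6 had 0.25 (0.07 to 0.43) and MYC -0.07 (-0.15 to 0.01), so the immediate early genes differed among themselves. SLC3A2 and PPP1R15A come from another list, 31 genes of the PERK, ATF4 and amino acid response. Its median was 0.045, with 17 ratios above 0 and 14 below, and 11 intervals above equality and 5 below. GADD45A comes from 21 p53 targets, with a median of 0.05, 5 intervals above equality and 2 below. HMOX1, with a ratio of 0.21, comes from a list of 19 NRF2 and metallothionein genes. The median of that list was 0.008, with 10 ratios above 0 and 9 below, and 6 intervals above equality and 3 below. The shares of all genes were 16.9% and 16.1%. Against ex2-3del the median of the immediate early genes was 0.02, with ATF3 at -0.14 and JUN at 0.03. Against ex8-14del it was -0.13, with no interval above equality and 8 below, against 16% and 15.4% of genes in that comparison. Since the control may have been given no plasmid, the allele and the transfection cannot be told apart for these genes.

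**Figure D4:**
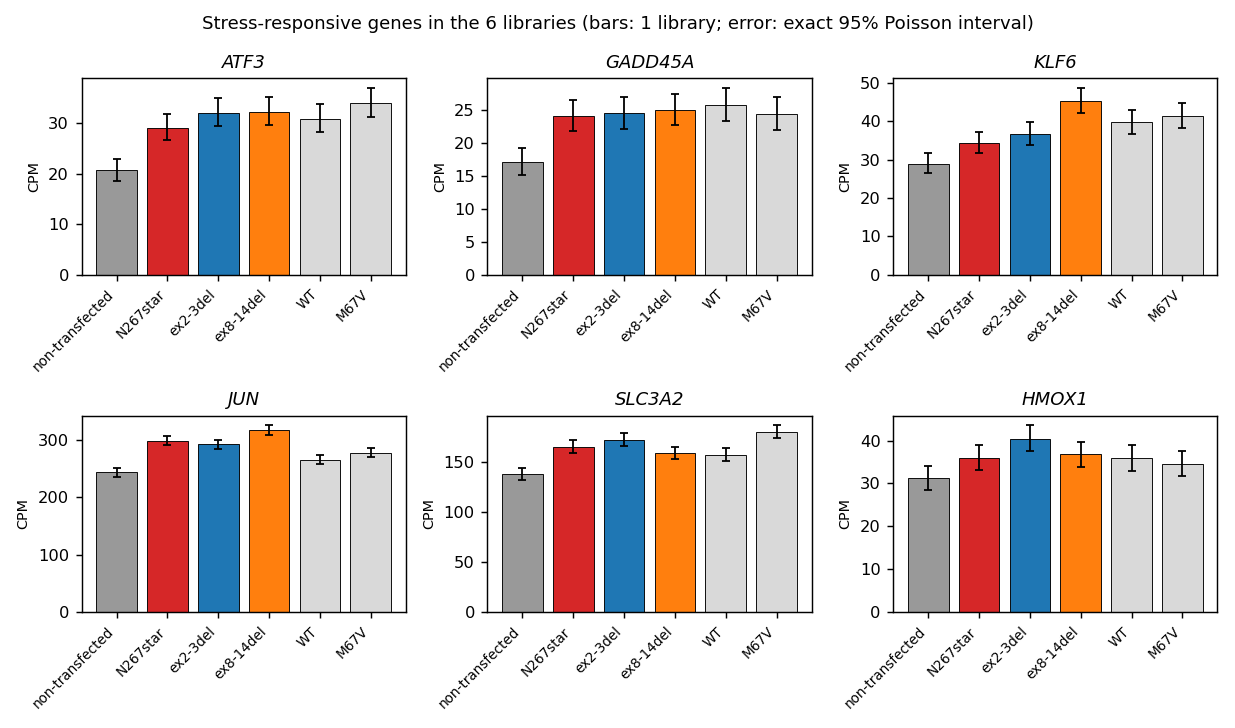
CPM (vertical axes, from 0) of 6 stress-responsive genes, chosen after their values were seen, in each of the 6 libraries; bars are single libraries and error bars exact 95% Poisson intervals of the count. The non-transfected bar is the lowest in each panel, for ATF3 at 20.6 CPM against 29.1 CPM in N267star. Because the genes were chosen by their values, this does not describe the lists they come from.

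NEU1, a lysosomal sialidase, was at 58.7 CPM in non-transfected, 75.01 CPM in N267star, 78.2 CPM in ex2-3del, 213 CPM in ex8-14del, 150 CPM in WT and 135 CPM in M67V. N267star and ex2-3del were close together between the control and the rest. Over the 48 genes of the lysosome and its proton pump the median was 0.03. In 15 the interval lay above equality and in 2 below, against 16.9% and 16.1% of all genes. OMA1, a protease of the inner mitochondrial membrane that acts in the mitochondrial stress response, was at 48.2 and 62.6 CPM, with a ratio of 0.38 (0.24 to 0.51). SYPL1, a membrane protein of transport vesicles, had 0.38 (0.26 to 0.50), and 0.26 with the GC trend subtracted. PMAIP1 (NOXA), a pro-apoptotic BCL2 family member, had 0.31 (0.21 to 0.41), and 0.19 with the GC trend subtracted. The 27 genes of the BCL2 family and cell death had a median of 0.02, with 14 ratios above 0 and 13 below. CASP9, the member of that list farthest from 0, had -0.32, and -0.28 with the GC trend subtracted. MAP9, NUCB2, FOPNL, C1GALT1C1, ZBTB21 and NEK7, also among the 15 highest, had ratios between 0.31 and 0.34, or between 0.18 and 0.24 with the trend subtracted, and FLJ44635 had 0.32.

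Cytosolic ribosomal proteins were slightly lower. The 32 genes of the small subunit had a median log2 ratio of -0.07, with 5 above 0, 3 intervals above equality and 20 below, against 16.9% and 16.1% of all genes. The 47 genes of the large subunit had a median of -0.04, with 7 intervals above equality and 19 below. The medians were -0.07 and -0.05 with the GC trend subtracted. Summed, the small subunit genes were at 14729 CPM in non-transfected and 14073 CPM in N267star, a ratio of -0.066 (-0.074 to -0.058).

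RPL37A, of the large subunit, was at 322 CPM in non-transfected, 260.0 CPM in N267star, 322 CPM in ex2-3del, 344 CPM in ex8-14del, 288 CPM in WT and 335 CPM in M67V. It was lowest in N267star and next lowest in WT, with a ratio of -0.31 (-0.37 to -0.25) in N267star. RPS15 had -0.23 (-0.28 to -0.18) and RPS13 -0.22 (-0.28 to -0.15). With the GC trend subtracted RPS15 had -0.09 and RPS13 -0.22. Against ex2-3del the differences were wider, with medians of -0.10 for both subunits and intervals below equality in 33 of the 47 and 25 of the 32 genes, against 8.98% of genes in that comparison. Against non-transfected, the large subunit had medians of -0.07 in WT, 0.04 in M67V, 0.06 in ex2-3del and 0.09 in ex8-14del. N267star and WT, the libraries with the steepest GC trends against non-transfected, were those with a large subunit median below 0. Ribosomal protein transcripts are short, and the log2 ratio also followed transcript length, with a Spearman's rho of 0.11 against non-transfected and 0.29 against ex2-3del. With GC and length trends subtracted, the medians of the large and small subunits were -0.062 and -0.077 against non-transfected and -0.080 and -0.076 against ex2-3del. Ribosomal protein genes have many near-identical copies, so the assignment of their reads is uncertain.

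**Figure D5:**
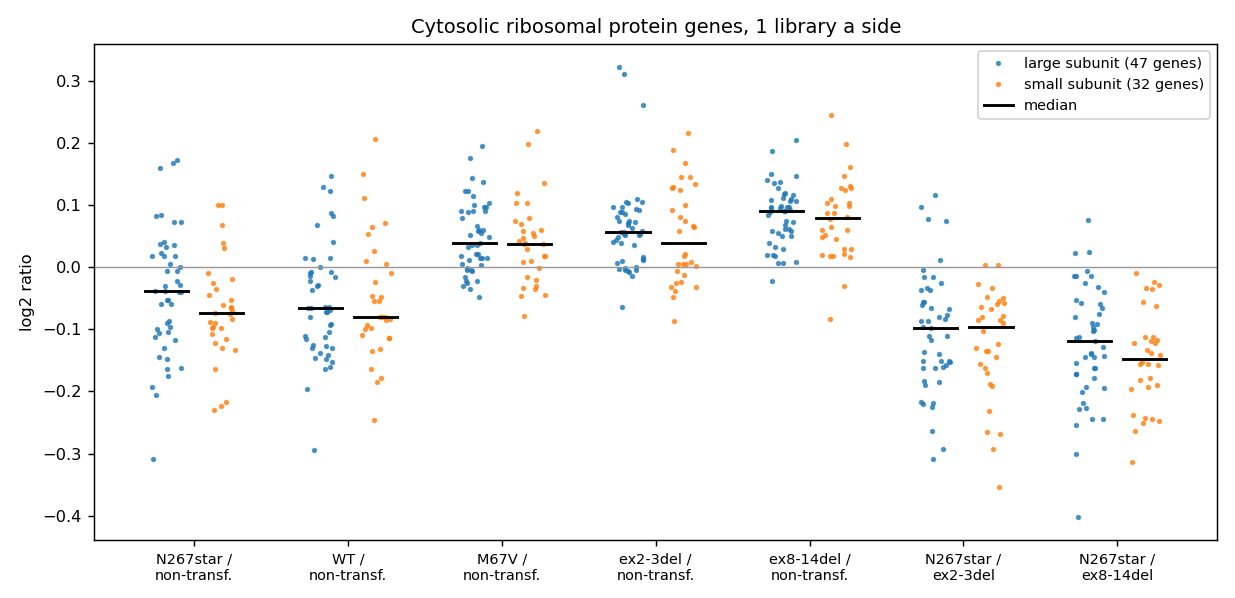
Log2 ratios (vertical axis) of 47 large subunit (blue) and 32 small subunit (orange) cytosolic ribosomal protein genes in 7 comparisons of single libraries; black lines are medians. For N267star against ex2-3del both medians are -0.10, and for ex8-14del against non-transfected the large subunit's is 0.09.

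The lowest ratio among well-counted genes without an overlap was that of GABBR1, a subunit of the metabotropic GABA receptor. It was at 61.1 CPM in non-transfected, 45.5 CPM in N267star, 47.1 CPM in ex2-3del, 47.8 CPM in ex8-14del, 56.8 CPM in WT and 64.4 CPM in M67V. The 3 alleles N267star, ex2-3del and ex8-14del lay under the other 3 libraries, and the ratio of N267star was -0.42 (-0.56 to -0.29), or -0.37 with the GC trend subtracted. INPP5E, a phosphatase of the primary cilium, was at 74.3 and 56.5 CPM, with a ratio of -0.40 (-0.52 to -0.27). With the GC trend subtracted INPP5E had -0.27. RNF44, CCDC57, PIDD1, DDX51, PLCXD1, TROAP, UCKL1, ABHD17A, AKR7A2, PUS1, MCRIP1 and GIGYF1 followed, with ratios between -0.34 and -0.30. Their transcripts had a GC content between 54.3% for PLCXD1 and 68.8% for ABHD17A, and their ratios with the trend subtracted lay between -0.27 and -0.17.

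Lipid genes also had medians slightly above 0. The 26 genes of cholesterol synthesis and uptake had a median of 0.07, with 11 intervals above equality and 3 below, against 16.9% and 16.1% of all genes. With the GC trend subtracted the median was 0.088 and 21 of the 26 were above 0, while against ex8-14del it was -0.076. The 19 genes of fatty acid synthesis and desaturation had a median of 0.096, with 7 intervals above equality and 4 below, and 0.042 with the trend subtracted. HMGCS1, an early enzyme of cholesterol synthesis, was at 103 CPM in non-transfected, 116 CPM in N267star, and 107 and 204 CPM in the ex2-3del and ex8-14del libraries. Its ratio in N267star was 0.17 (0.07 to 0.26), and 0.08 with the GC trend subtracted. FASN, the fatty acid synthase, was at 1141 and 988 CPM, a ratio of -0.21 (-0.24 to -0.18). Its GC content is 65.3%, and the ratio was -0.07 with the trend subtracted.

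The identity of the cells was checked with markers of other cell types. The 26 such markers summed to 51.5 CPM in non-transfected and 44.2 CPM in N267star, and 8 of them were at 0 and 18 under 1 CPM in both libraries. Genes known from HEK293 cells summed to 1889 and 2002 CPM. In the deposited table the 13 mitochondrially encoded genes were at 0 in each library, so they could not be compared.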

How the data were processed

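RNA of 6 HEK293T cultures was sequenced, 1 library per group, and the genotype label set each sample's group. The authors deposited expected counts per gene symbol. The submitters' processing notes name GRCh37.p13 and DESeq. For the aligner, the counting program and its strand setting, nothing is given in the sources used here. The authors also deposited a comparison sheet with a fold (ratio) and an adjusted p-value per gene, from which a few values were copied. A second count table was not used, and its 6 columns of per-sample values stayed aside.

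In the deposited counts, genes without reads held a placeholder of 0.028, set to 0 here. Counts were rounded to whole numbers, 28 of 38072 rows with date-like names were left out, and rows of 1 symbol were summed, leaving 37993 symbols. Between 3.46% and 3.55% of rows were fractional in a library. Totals ran from 16023952 to 16813355, where 3 counts are 0.178 to 0.187 CPM.

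Libraries were scaled by TMM factors (edgeR 4.0.16, R 4.3.3). Ratios used a prior count of 2 and exact conditional binomial (Clopper-Pearson) 95% intervals. PCR copies cannot be told from separate molecules here, so intervals and floors cover counting error only. The criteria were 2-fold at 5 CPM in either library, 1.2-fold at a mean of 50 CPM, and list membership at a mean of 10 CPM. They are criteria of size and no test. GC content and length came from GENCODE v29 transcripts for 99.5% of genes at a mean of 10 CPM, and the subtraction took the median of 20 GC bins. Overlaps were read from a RefSeq GRCh38.p14 gene table, a build other than the authors', which held 99.3% of genes with 5 CPM in any library; no coordinates of the files were used. Other steps used Python 3.11.15 (pandas 2.3.3, numpy 2.4.6, scipy 1.17.1, matplotlib 3.10.9) and were tested on simulated data.

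The comparison and the 51 gene lists were chosen with earlier results of these data known. Genes named in the text were drawn from these, not all of which are printed: ATF6, HSPA5, HSP90B1, HERPUD1, SEL1L, DDIT3, XBP1, HMGCS1, all genes past 2-fold, the 15 highest and 15 lowest well-counted genes without an overlap, and, of every list, the 4 members whose ratios were farthest from 0. Outside this rule, other list members (HYOU1, CNPY2, CNPY3, P4HB, CALR, PDIA6, MYC), the gene GYS1 and the higher genes past 1.2-fold after GC subtraction, of which 1 is not reported here, were named after their values were seen; of the 16 lower ones, only those within the rule are named. Alternatives changed the scaling (DESeq2 1.42.0 size factors, library totals), filters, prior count, fold, interval, overlapping genes and reference library; GC and length subtraction, the ex2-3del reference for small shifts and the ex8-14del reference for lists were added after seeing the data.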

Additional observations from a re-analysis of the deposited data

How the results depend on the processing

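No paired analysis was possible because each group had 1 library and the labels give no replicate numbers, and for the same reason no replicate could be left out. Scaling by DESeq2 size factors or library totals, a prior count of 0.5 and a 99% interval kept both counts of genes within 1.5 times, and changed no direction of a named gene. Genes past 2-fold numbered 28 higher and 33 lower at 1 CPM, 49 and 60 with no minimum, 15 and 32 at 1.5-fold, and 1 and 1 without overlapping genes. Small shifts numbered 185 higher and 187 lower at a mean of 20 CPM, 22 and 15 at 100 CPM, 698 and 593 at 1.1-fold, 224 and 201 midway between 1.1-fold and 1.2-fold, and 3 and 7 at 1.3-fold. They numbered 11 and 16 with GC subtracted, 9 and 14 with GC and length subtracted, and 12 and 22 with ex2-3del as the reference. A list median counts as moved when it shifts by more than the median half-width of its members' counting intervals. That half-width belongs to single genes and does not measure how uncertain a median is. Medians not counted as moved also changed. The disulfide isomerases went from 0.15 to 0.08 with GC subtracted. The chaperones went from 0.16 to 0.18 with GC subtracted, and to 0.05 with ex2-3del as the reference. Among the 9 lists of ER folding and export, immediate early and ribosomal protein genes, GC subtraction moved none, and ex2-3del as the reference moved the disulfide isomerases to 0.045, the translocon list to 0.027, the oligosaccharyltransferase to -0.013 and the large ribosomal subunit to -0.10. With ex8-14del the chaperones moved to -0.029, the translocon list to 0.030, the oligosaccharyltransferase to 0.021, the immediate early genes to -0.13, and the large and small ribosomal subunits to -0.12 and -0.15. With ex2-3del as the reference the sign reversed for ATF6 (-0.92), SYNC (-0.00015), PHKG1 (-0.16), ZACN (-0.44), NEU1 (-0.059), SLC3A2 (-0.061), FKBP2 (-0.065), ATF3 (-0.14), GADD45A (-0.023) and KLF6 (-0.10). With ex8-14del it reversed for ATF6 (-1.76), CALR (-0.017), HYOU1 (-0.028), HSPA5 (-0.10), HSP90B1 (-0.0059), XBP1 (-0.078), SYNC (-0.091), PHKG1 (-0.16), SEL1L (-0.0072), HMGCS1 (-0.82), NEU1 (-1.50), JUN (-0.087), P4HB (-0.42), EIF2AK3 (-0.15), ATF3 (-0.15), GADD45A (-0.053), PPP1R15A (-0.039), KLF6 (-0.40) and FASN (0.010). The cause of these changes was not tested. Depth limits genes near 10 CPM most: DNAJB9 and DDIT3 had intervals that include equality.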

Other observations

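Outside the secretory pathway, many lists had medians near that of all genes, of which 16.9% had an interval above equality and 16.1% below. The 42 mitosis genes had a median log2 ratio of 0.03, with 13 intervals above equality and 7 below, and the 41 genes of replication and S phase had a median of -0.0039, with 6 above and 8 below. The 42 translation factors had a median of 0.00064, with 11 intervals above equality and 7 below. The 76 nuclear genes of the respiratory chain had a median of -0.02, with 10 intervals above equality and 15 below. Among them the complex I subunits NDUFA7 and NDUFS7 had -0.25 (-0.39 to -0.12) and -0.24 (-0.37 to -0.11). With the GC trend subtracted their ratios were -0.19 and -0.10. NDUFA5 went the other way, at 0.20, and 0.07 with the trend subtracted. The 41 core spliceosome genes leaned lower, with a median of -0.04, 8 intervals above equality and 16 below. With the GC trend subtracted their median was -0.036, and 4 intervals lay above equality and 7 below. Of all 10082 genes so treated, 948 had an interval above equality and 961 below. SF3A2, a subunit of the U2 particle, was at 286 CPM in non-transfected and 252 CPM in N267star. Its ratio was -0.19, and -0.05 with the trend subtracted. BUD31, the member farthest from 0, had 0.20, and 0.25 with the trend subtracted. The 18 factors of nonsense-mediated decay, the pathway that removes mRNAs with an early stop, had a median of -0.04, with 4 intervals above equality and 6 below.

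PFDN4, a subunit of the prefoldin complex that hands actin and tubulin to the chaperonin, was at 25.9 CPM in non-transfected and 34.0 CPM in N267star, a ratio of 0.39 (0.21 to 0.58). With the GC trend subtracted its ratio was 0.26. PFDN6, of the same complex, went the other way at -0.27, and -0.18 with the trend subtracted. The 14 genes of chaperonin and prefoldin had a median of 0.08, with 9 intervals above equality and 1 below, against 16.9% and 16.1% of all genes. ACTB, cytoplasmic beta actin, was at 2837 and 2523 CPM, a ratio of -0.17 (-0.19 to -0.15), and -0.11 with the GC trend subtracted.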
